A study of Heterocephalus glaber with 2 samples.

Results

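Collagen VI and 7 other collagens that lie on fibrils, around vessels or in basement membranes were followed in full-thickness back skin of young and old naked mole-rats (Heterocephalus glaber), which are long-lived burrowing rodents. The set was given as 10 gene symbols, and loci were chosen by the gene name in the deposited tables, with the locus of highest mean level to be taken where a symbol had several. That rule found 8 of the 10 symbols among 24514 loci, each at 1 locus. COL16A1 was found by its NCBI gene number instead, because its row carries an Ensembl identifier in place of a symbol, and it is described with the others. No locus matched COL15A1, which was not analysed here. Young animals were 4 years old and old animals 19 years old, and the sources used here give no sex, strain, housing or treatment for either age. Each age has 1 GEO sample with 2 tables, numbered 1 and 2, and each table was taken as 1 library of total RNA depleted of ribosomal RNA. The labels leave it unsaid if a table stands for 1 animal, a pool or a repeat run, so p-values measure only the spread between libraries, which may be technical.

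Collagen VI forms beaded microfilaments that run between the large collagen fibrils and close to cells. Its unit joins an alpha 1, an alpha 2 and an alpha 3 chain, encoded by COL6A1, COL6A2 and COL6A3. Collagens XII, XIV, XVI and XXI belong to the fibril-associated family, whose members have interrupted triple helices and sit on the surface of fibrils built from collagens I, III and V. Collagen XVIII is a heparan sulfate proteoglycan of basement membranes, and collagen VIII is a short-chain collagen that forms networks in vessel walls, so neither of these is a fibril-associated collagen in the strict sense.

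Levels are FPKM, in which fragments are divided by locus length and by library size, so that levels of different genes can be set side by side. Sequencing depth is unknown. The library number carried a large difference in RNA composition. Small structural RNAs held 46.9% and 51.2% of summed FPKM in young 1 and old 1 but 0.0978% and 0.330% in young 2 and old 2, and mitochondrial transcripts held 4.06% to 5.77% with number 1 and 23.2% to 29.6% with number 2. Old skin was therefore set against young skin within each number, as 1 library against 1 library, which has no replicate check. Keratinocyte, fibroblast, endothelial and skeletal muscle markers were present in all 4 libraries, with summed FPKM of 2647 to 6049 for suprabasal keratinocytes, 811 to 1234 for fibroblasts, 91.1 to 132 for endothelium and 2571 to 3795 for skeletal muscle.

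All 3 collagen VI chains were lower in old than in young skin in both numbers. On FPKM as deposited, both old libraries lay below both young ones for each chain. COL6A1 measured 97.1 FPKM in young 1, 184 FPKM in young 2, 54.4 FPKM in old 1 and 29.3 FPKM in old 2. It was 1.78-fold lower with age in number 1 and 6.29-fold lower in number 2. COL6A2 measured 71.8, 221, 47.7 and 53.9 FPKM in the same order of libraries, which made it 1.51-fold and 4.10-fold lower. Here the highest value by far was young 2, while the old libraries were close together.

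COL6A3, whose chain carries the longest globular region of the molecule and is released in part as a C-terminal fragment called endotrophin, measured 78.6, 51.3, 38.8 and 8.63 FPKM. It was 2.02-fold lower in number 1 and 5.94-fold lower in number 2. Unlike the alpha 1 and alpha 2 chains, COL6A3 was lower in young 2 than in young 1, and old 2 stood well apart at the bottom. The separation of the COL6A3 ages depended on scaling. Removal of structural RNA and mitochondrial loci rescales old 1 by a factor of 1.26 and young 2 by 0.766. On that scale COL6A3 was higher in old 1 than in young 2.

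Over the 12753 loci whose mean reached 1 FPKM, limma on log2(FPKM + 1) with age as the single term called 0% of loci higher and 0% lower in old skin at adjusted p 0.05, and no collagen VI chain passed. At unadjusted p under 0.05 the same fit had 25 loci above (0.196%) and 53 below (0.416%), none of them among the 9 collagens. Dropping the trend or making the moderation robust also left 0 calls. In that fit the log2 difference was -1.72 ± 0.70 (SE) for COL6A1, -1.30 ± 0.77 (SE) for COL6A2 and -1.72 ± 0.83 (SE) for COL6A3, each with adjusted p = 1.00. When the library number was added as a term, limma called 0.00784% of loci higher and 0.0157% lower, and the chains again did not pass, with adjusted p = 0.445, 0.582 and 0.363 in the same order. Their unadjusted p-values in that fit were 0.0073, 0.0195 and 0.0031, where 3.61% of all loci lay below young skin and 2.96% above it at unadjusted p under 0.05.

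COL16A1, the fibril-associated collagen that in human skin is found near the dermal-epidermal junction, had the same order of ages as collagen VI. It measured 12.6, 41.4, 7.07 and 7.55 FPKM in young 1, young 2, old 1 and old 2. Both old libraries were close together and below both young ones, and the gene was 1.78-fold lower in number 1 and 5.48-fold lower in number 2. Its log2 difference was -1.53 ± 0.68 (SE), with adjusted p = 1.00 in limma on age alone and 0.379 with the number term.

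**Figure D1:**
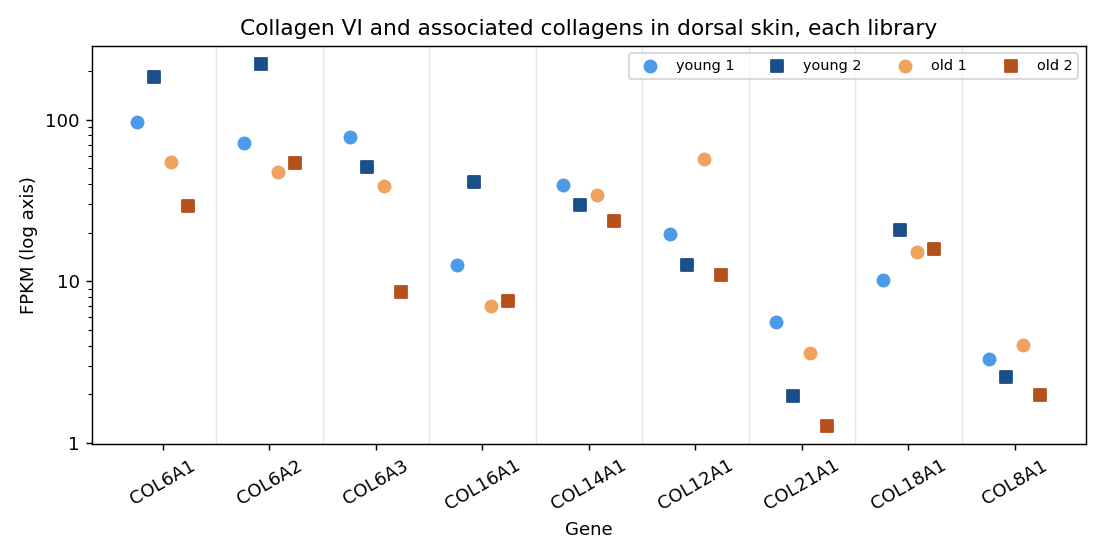
FPKM of each collagen (log axis) in the 4 libraries, blue for young and orange for old, circles for number 1 and squares for number 2. For COL6A1, COL6A2, COL6A3 and COL16A1 both orange points lie below both blue ones, while for the other 5 genes the ages overlap.

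The remaining 5 collagens overlapped between ages. COL14A1, which binds decorin and regulates the width of fibrils in mouse skin and tendon, varied least over the libraries, at 39.5, 29.6, 34.2 and 23.7 FPKM. COL14A1 was 1.15-fold lower with age in number 1 and 1.25-fold lower in number 2. On FPKM as deposited, these differences were smaller than those between numbers within an age. The limma log2 difference was -0.25 ± 0.55 (SE).

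COL12A1, a fibril-associated collagen that is abundant in tissues under tension, measured 19.6, 12.6, 57.1 and 10.9 FPKM. A single library, old 1, accounts for the high value, 2.92-fold above young 1, whereas old 2 was 1.16-fold below young 2. In old 1 COL12A1 was the highest of all 9 collagens, above every collagen VI chain, and in young 1 and old 2 it was the fifth. On age alone limma gave a log2 difference of 0.65 ± 0.86 (SE), and without old 1 the difference was -0.49.

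COL21A1, a fibril-associated collagen of low level, measured 5.61, 1.95, 3.61 and 1.28 FPKM. It was lower in old skin by close ratios, 1.55-fold in number 1 and 1.52-fold in number 2, but the number 2 libraries lay so far below the number 1 libraries that the ages overlapped. The log2 difference of -0.45 ± 0.67 (SE) did not pass, and it was 0.06 without old 2 and 0.14 without young 1.

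COL18A1, the basement membrane collagen whose C-terminal part is cut off as endostatin, measured 10.1, 20.7, 15.2 and 15.9 FPKM. Both old libraries lay between the young ones, old 1 at 1.503-fold of young 1 and old 2 1.298-fold below young 2. In human, COL18A1 is a chromosomal neighbour of COL6A1 and COL6A2, and its values did not follow theirs. The limma log2 difference was 0.09 ± 0.56 (SE), and it was -0.39 without young 1.

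COL8A1 measured 3.32, 2.55, 4.05 and 1.98 FPKM, with the old libraries at the top and at the bottom. The identity of this locus is uncertain, since its row is named COL8A1 but described as CMSS1, and another locus is named CMSS1 and carries the same description. The limma log2 difference was -0.01 ± 0.54 (SE), and its sign changed to 0.036 after removal of structural RNA and mitochondrial loci. Over all 9 collagens the lowest single value was 1.28 FPKM, so none passed the filter on low values through 1 age alone.

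Across the set, 6 of 9 genes were lower with age in each number, 0 were higher in each and 3 went in opposite directions, against 23.1%, 26.7% and 49.1% of all tested loci. On FPKM as deposited, all 4 of the genes with fully separated ages had the old libraries below, a pattern seen in 6.46% of tested loci. The old libraries lay above in 0 of 9, against 7.3% of loci. COL6A3 is among these 4, though its ages overlapped after removal of structural RNA and mitochondrial loci. The median log2 difference of the 9 genes was -0.52 in number 1 and -0.37 in number 2, beside 0.07 and -0.06 over all tested loci. In number 2 all 9 were lower in old skin, against 54.6% of loci, and in number 1 the share was 6 of 9 against 41.2%. Rescaling after removal of structural RNA and mitochondrial loci shifted FPKM differences by -0.07 in number 1 and 0.20 in number 2 on the log2 scale, and all 9 kept their sign in each number, with COL12A1 at -0.012 in number 2. The genes fell far apart within the set, from -2.61 for COL6A1 to -0.19 for COL12A1 in number 2 and from -0.998 for COL6A3 to 1.498 for COL12A1 in number 1, all on the log2(FPKM + 1) scale.

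Ranked among all tested loci by their number 2 difference, COL6A1, COL6A3, COL16A1 and COL6A2 stood low, with 0.306%, 0.376%, 0.502% and 0.792% of loci below them. In number 1 the shares below were 2.83%, 1.83%, 3.47% and 5.48%. COL12A1 stood at the other end in number 1, above 99.4% of loci, and in the middle range in number 2, above 38.9%. COL14A1 was near neither end, with 20.6% and 30.3% of loci below it.

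**Figure D2:**
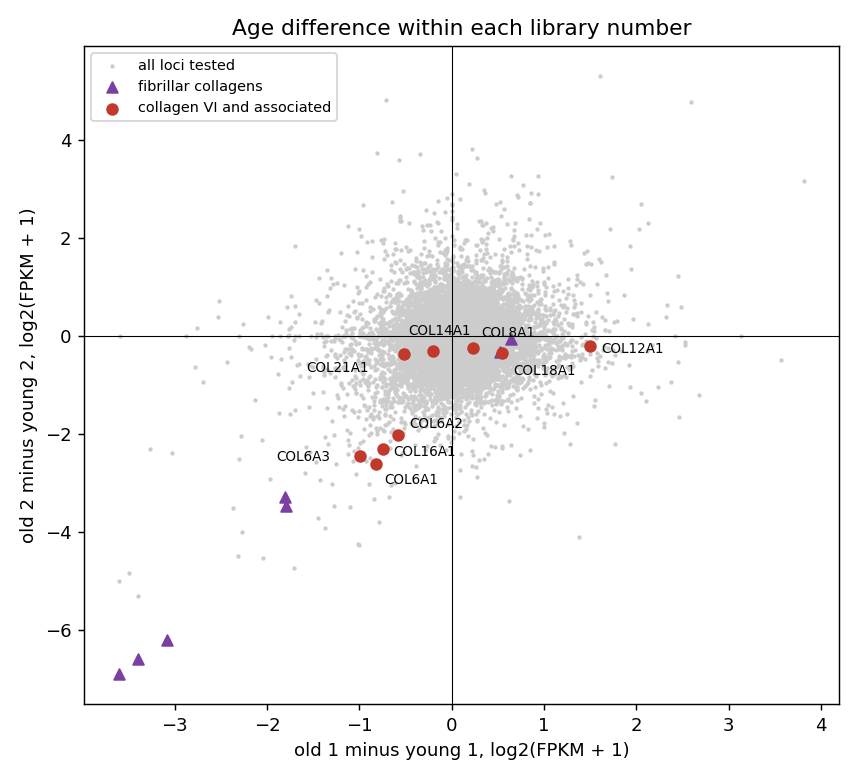
Log2 difference of old from young in number 1 (horizontal axis) against number 2 (vertical axis), on the log2(FPKM + 1) scale, for all 12753 tested loci (grey), the fibrillar collagens (triangles) and the 9 collagens described here (red). COL6A1, COL6A2, COL6A3 and COL16A1 lie together at the lower left, between the bulk of loci and the main fibrillar chains, and the other 5 lie near the horizontal line at 0.

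The ratio of the collagen VI chains followed the library number more than age. COL6A3 had 0.809 of the level of COL6A1 in young 1 and 0.714 in old 1, but 0.278 in young 2 and 0.294 in old 2. Within a number, the old ratio was 0.882 and 1.06 of the young one. COL6A2 had 0.739 of the level of COL6A1 in young 1 and 0.876 in old 1, with 1.20 in young 2 and 1.84 in old 2. With age it was thus 1.19-fold and 1.53-fold higher relative to COL6A1. COL6A3 had 1.09 of the COL6A2 level in young 1 and 0.232 in young 2, and the same order held in old skin at 0.815 and 0.1601.

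The collagens also differed between the numbers within an age. COL6A3, COL8A1, COL12A1, COL14A1 and COL21A1 were lower in number 2 than in number 1 in both ages, 5 of 9 against 50.4% of tested loci. The log2 difference of number 2 from number 1 in old skin was -2.05 for COL6A3, -2.29 for COL12A1 and -1.02 for COL21A1. COL6A2, COL16A1 and COL18A1 were higher in number 2 in both ages, 3 of 9 against 31.5% of loci, with differences of 1.61, 1.64 and 0.96 in young skin and 0.17, 0.08 and 0.06 in old skin. COL6A1 differed by 0.92 in young skin and by -0.87 in old skin. These differences between numbers are on FPKM as deposited and depend on scaling. Removal of structural RNA and mitochondrial loci rescales old 1 by a factor of 1.26 and old 2 by 0.878. On that scale COL6A2, COL16A1 and COL18A1 were lower in old 2 than in old 1.

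Relative to COL1A1, the main chain of type I collagen, COL6A1, COL6A2, COL6A3, COL12A1, COL14A1, COL16A1 and COL18A1, the 7 collagens compared, were each higher in both old libraries than in both young ones. COL1A1 itself measured 2079, 4121, 196 and 41.4 FPKM in young 1, young 2, old 1 and old 2. Any gene less reduced with age than COL1A1 within a number therefore has a higher ratio in old skin there. The share of all loci with ages separated on this scale was not computed, so the ratios do not set these collagens apart from other genes. COL6A1 had 0.0467 and 0.0447 of the COL1A1 level in the young libraries and 0.277 and 0.708 in the old ones. COL14A1 had 0.0190 and 0.00719 of it in young skin and 0.175 and 0.574 in old skin. COL12A1 had 0.00941 and 0.00306 in young and 0.291 and 0.263 in old skin, a 30.9-fold and an 86.1-fold higher ratio.

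**Figure D3:**
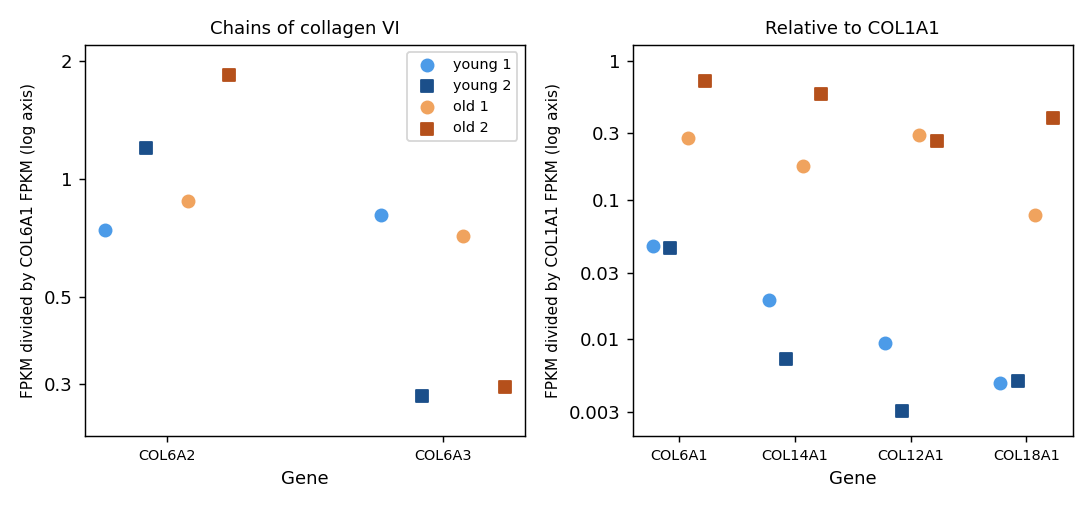
Left, FPKM of COL6A2 and COL6A3 divided by that of COL6A1; right, FPKM of COL6A1, COL14A1, COL12A1 and COL18A1 divided by that of COL1A1 (both log axes), one point per library with circles for number 1 and squares for number 2. The COL6A3 ratio separates squares from circles, at 0.278 and 0.294 against 0.809 and 0.714. All ratios to COL1A1 separate the ages, with COL1A1 itself far lower in old skin.

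Over 37 collagen loci with an assigned symbol, the 9 genes made up 5.12% of summed collagen FPKM in young 1 and 5.99% in young 2, and 26.1% in old 1 and 34.96% in old 2. Collagen VI alone made up 3.75% and 4.83% in young and 14.03% and 21.0% in old skin. These shares were higher although summed collagen VI was lower, at 247 and 457 FPKM in young and 141 and 91.8 FPKM in old skin. Summed fibrillar collagen was 6114 and 8741 FPKM in young and 603 and 108 FPKM in old skin. Among the 27 collagen loci other than the fibrillar ones, collagen VI instead had the smaller share in old skin, 35.1% and 27.8% against 50.9% and 64.5%. An exact two-sided permutation test of each of these 3 shares gave p = 0.333, the lowest value that 2 against 2 libraries allow. The shares do not depend on the scaling between libraries.

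**Figure D4:**
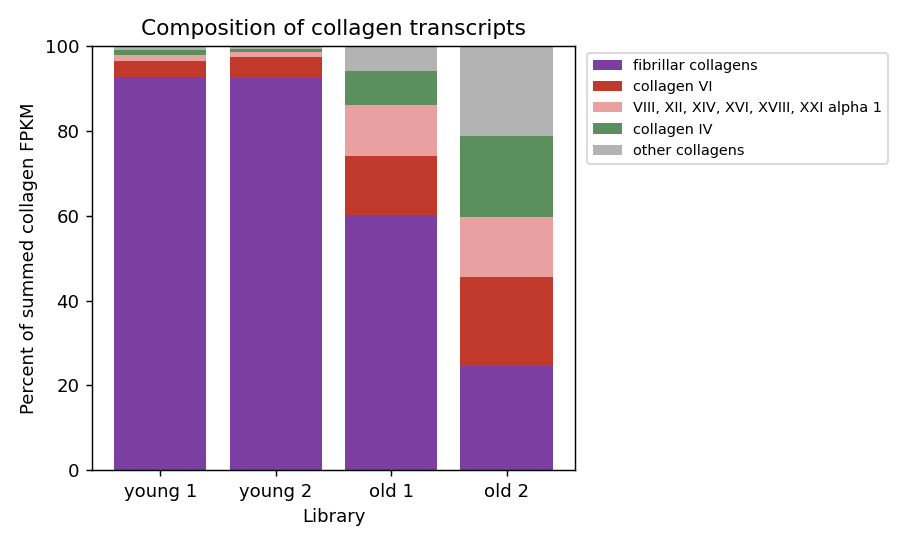
Percent of summed collagen FPKM in each library by class, over 37 collagen loci. Fibrillar collagens fill 92.6% and 92.5% of the young bars and 60.1% and 24.7% of the old ones, while the 2 red classes together fill 5.12% and 5.99% against 26.1% and 34.96%.

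The closest relatives of the set were at low levels and did not share a direction. Of 10 other collagen VI, fibril-associated and short-chain genes, 9 had a locus and 6 reached a mean of 1 FPKM. Of these 6, 2 were lower with age in each number and 0 higher, against 23.1% and 26.7% of all tested loci. COL9A3, a chain of the fibril-associated collagen IX, was matched by its gene number and measured 2.57, 13.2, 0.875 and 1.43 FPKM, with both old libraries below both young ones. COL6A6, which encodes an alternative collagen VI chain, measured 4.71, 0.586, 1.57 and 0.0384 FPKM. COL6A6 is one of the 2 counted as lower, and it reached the filter on low values only through the young libraries, so its direction is no support for the count. COL10A1, a short-chain collagen of growth cartilage, was nearly confined to number 1 in these 4 libraries, at 3.92 and 2.59 FPKM against 0.0310 and 0.0723 FPKM. COL8A2, which pairs with COL8A1, COL9A2 and COL20A1 were each higher in old 1 than in young 1 and lower in old 2 than in young 2, with log2 differences of 0.44 and -1.41, 0.77 and -1.84, and 0.21 and -1.52.

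Among the fibrillar collagens on which the associated ones sit, 5 of 7 tested loci had lower values with age in each number and 0 had higher ones. Their medians were -1.80 and -3.47. For all tested loci the shares were 23.1% lower and 26.7% higher in each number, with medians of 0.07 and -0.06. COL3A1 and COL1A2 belong to the 5 lower loci, with log2 differences of -3.61 and -6.91 for COL3A1 and -3.09 and -6.22 for COL1A2. Every one of the 4 collagens with separated ages in the set differed less than these chains in each number.

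Genes whose products bind collagen VI or the fibril surface were mostly lower in number 2. Of 15 listed partners 14 were tested, 9 were lower with age in each number and 0 higher, and the medians were -0.05 and -1.31. Over all tested loci 23.1% were lower in each number and 26.7% higher. BGN, or biglycan, which binds collagen VI, measured 39.0, 84.4, 17.3 and 15.0 FPKM, with both old libraries below both young ones. Its log2 difference was -1.77 ± 0.61 (SE), adjusted p = 1.00 in limma on age alone. POSTN, or periostin, a matricellular protein of collagen-rich tissue, measured 152, 86.7, 55.2 and 5.62 FPKM. DCN, or decorin, which coats fibrils, differed little in number 1, at 204 and 197 FPKM, and was 248 and 140 FPKM in young 2 and old 2. FN1, or fibronectin, measured 214 and 192 FPKM in number 1 and 85.0 and 34.5 FPKM in number 2.

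Receptors did not share a direction. Of 12 listed collagen receptors and uptake genes 10 were tested, 3 were lower and 4 higher in both numbers, and the medians were -0.08 and 0.08. The shares over all tested loci were 23.1% lower and 26.7% higher. ITGB1, the beta chain common to the collagen-binding integrins, measured 39.9, 34.97, 41.9 and 31.2 FPKM. ANTXR1, an anthrax toxin receptor that also binds collagens, measured 36.3, 14.2, 30.6 and 33.8 FPKM, with young 2 the one low library. MRC2, an endocytic collagen receptor, measured 24.1, 19.9, 13.0 and 7.27 FPKM. It was the single gene of this list with both old libraries below both young ones, a pattern seen in 6.46% of all tested loci. ITGA2, the alpha chain of a collagen-binding integrin, was higher in old skin in both numbers, from 3.16 to 6.25 FPKM and from 0.647 to 1.22 FPKM.

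Genes for collagen turnover were likewise mixed. Of 12 listed 10 were tested, with 4 lower and 2 higher in both numbers and medians of -0.19 and -0.44. Of all tested loci 23.1% were lower and 26.7% higher in both numbers. MMP11, a protease known to cut the alpha 3 chain of collagen VI in mouse, measured 0.735, 0.494, 2.37 and 6.45 FPKM, with both old libraries above both young ones. MMP11, one of the 2 counted as higher, reached the filter on low values only through the old libraries, so its direction is given as a description. ADAMTS2, which removes the N-terminal propeptide of fibrillar procollagens, measured 21.8, 27.7, 7.68 and 17.3 FPKM. TIMP2, an inhibitor of matrix metalloproteinases, measured 198, 183, 118 and 94.3 FPKM, and CTSB, a lysosomal protease, 89.1, 128, 73.2 and 225 FPKM.

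**Figure D5:**
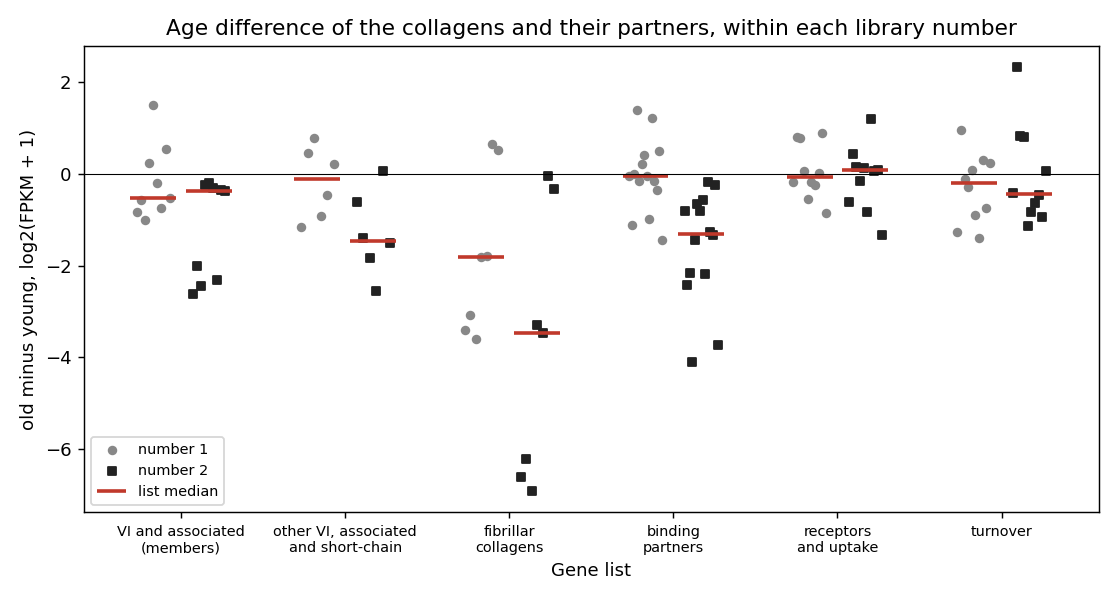
Log2 difference of old from young for each tested gene of 6 lists, on the log2(FPKM + 1) scale, with grey circles for number 1, black squares for number 2 and red lines for list medians. The 9 collagens of the set have medians of -0.52 and -0.37, between the fibrillar collagens at -1.80 and -3.47 and the receptors at -0.08 and 0.08.

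Markers of the cells that make these collagens were set beside them. Of 12 fibroblast markers 8 were lower with age in each number and 0 higher, against 23.1% and 26.7% of all tested loci. DCN, DPT and LUM are also among the binding partners above, and each was counted as lower in both lists. The medians of the 12 fibroblast markers were -0.06 and -0.56. Their summed level was 1028 and 1234 FPKM in young and 1215 and 811 FPKM in old skin, so the ages overlapped. VIM, or vimentin, measured 428, 559, 613 and 459 FPKM. Relative to DCN, a fibroblast product, COL6A1 was lower in old skin, at 0.276 and 0.209 against 0.476 and 0.742 in young skin, and COL6A3 had 0.197 and 0.0615 against 0.386 and 0.207. COL6A2 overlapped between ages on this scale, with 0.352 and 0.891 in young and 0.242 and 0.384 in old skin, though it was lower within each number. COL12A1 had 0.0960 and 0.0508 in young and 0.289 and 0.0777 in old skin, 3.01-fold and 1.53-fold higher within the numbers, with the ages overlapping. COL14A1 also overlapped, with 0.194 and 0.119 in young and 0.173 and 0.169 in old skin. In skin taken as bulk, fewer cells of a type and less RNA per cell cannot be told apart.

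Endothelial markers, which bear on COL18A1 and COL8A1, were lower with age in each number for 5 of 10 and higher in each for 0. Over all tested loci the shares were 23.1% and 26.7%. The endothelial medians were -0.23 and -0.05. VWF measured 30.1, 22.2, 23.4 and 21.7 FPKM and CLDN5 measured 18.9, 18.6, 12.8 and 20.01 FPKM. COL18A1 had 0.337 and 0.932 of the VWF level in young skin and 0.651 and 0.734 in old skin. COL8A1, COL12A1 and COL18A1 went in opposite directions in the numbers, as did 6 of 7 adipocyte markers, 6 of 8 Schwann cell markers and 49.1% of all tested loci. The adipocyte list had medians of 0.94 and -1.40 and the Schwann cell list 0.69 and -0.67. The summed level of the adipocyte list was 482 and 318 FPKM in young and 801 and 198 FPKM in old skin, with ADIPOQ at 154, 45.1, 226 and 8.41 FPKM and FABP4 at 147, 105, 246 and 95.1 FPKM. The Schwann cell list summed to 84.5 and 104 FPKM in young and 144 and 64.3 FPKM in old skin. The part of these cell types in the collagen values was not tested.

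Other cell types had their own values. Of all tested loci 26.7% were higher and 23.1% lower in both numbers. Skeletal muscle markers were higher in both numbers for 6 of 7 genes, among them ACTA1 at 1349, 871, 1832 and 1332 FPKM. They were lower for CKM at 503, 629, 450 and 524 FPKM. Red cell markers were lower in both numbers for 3 of 3 tested genes. One of these, HBZ, reached the filter only through the young libraries, at 1.15 and 2.93 FPKM, and is listed at the floor of 0.0001 FPKM in both old ones. The most abundant markers were HBA2 at 258, 750, 25.9 and 150 FPKM and ALAS2 at 6.92, 3.79, 1.71 and 1.67 FPKM. Melanocyte markers were lower in both numbers for 3 of 5, higher in both for 1 and opposite in the numbers for 1. The most abundant were PMEL at 17.9, 49.3, 3.30 and 19.2 FPKM and TYRP1 at 9.87, 37.0, 4.65 and 18.8 FPKM, both among the lower ones. For the pericyte and smooth muscle, basal keratinocyte, suprabasal keratinocyte, Schwann cell, macrophage and mast cell lists the median log2 differences on age alone were -0.01, -0.33, -0.24, 0.10, 0.37 and -0.54. Some of these hide opposite medians in numbers 1 and 2. The macrophage list had -0.27 and 0.74, and the Schwann cell list 0.69 and -0.67. Suprabasal keratinocytes had 0.05 and -0.47, and pericytes and smooth muscle 0.06 and -0.18. Basal keratinocytes had -0.26 and -0.39, and mast cells -0.09 and -0.37.

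The loci most like collagen VI were sought by the Euclidean distance from the mean centred log2 profile of its 3 chains over the 4 libraries, among 1543 other loci with a symbol and a mean of at least 20 FPKM. PDGFRL was closest at a distance of 0.281, with 41.6, 61.8, 21.9 and 14.5 FPKM. CCDC3 followed at 0.308, with 36.8, 60.7, 18.4 and 12.9 FPKM, and MGP, or matrix Gla protein, an inhibitor of calcification, at 0.360, with 154, 177, 73.4 and 33.9 FPKM. THY1, a cell surface glycoprotein, lay at 0.491 and LGALS3BP at 0.533. COL6A1 itself lay 0.242 from this mean profile, COL6A2 1.07 and COL6A3 1.20, so the last 2 chains were farther from their own mean than these 5 loci were. With 4 libraries such a likeness is a description.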

How the data were processed

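The authors deposited 4 tables of FPKM values over the same 24514 loci, with a floor of 0.0001 FPKM. Per the labels, RNA was depleted with the Ribo-Zero Gold kit and sequenced in pairs. Cutadapt, FastQC, Bowtie2 and TopHat2 are named, without versions, in the submitters' processing notes. For the build, annotation and quantifier the sources used here name nothing, so no coordinates are printed. Low values did not fall on multiples of 1 read, so counting error could not be given.

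Symbols came from the tables or, for 1450 loci, by NCBI gene number from RefSeq's table of H.glaber_assembly_v1.0. Limma 3.58.1 (R 4.3.3) was run on log2(FPKM + 1) with a mean-variance trend, a filter at a mean of 1 FPKM and Benjamini-Hochberg adjustment, called at 0.05; all tests were two-sided. This scale understates changes of low genes, and folds in the text are FPKM ratios. With 2 libraries an age, each value is printed in place of an SD. The fits were tested on simulated data. For the fit on age alone the simulation held no difference between library numbers, so it does not cover the difference seen in these libraries. The text names, from each list, the genes of highest mean and, for pathway lists, of lowest p, and every tested close relative; CMSS1 and HBZ were named after their values were seen. Members and lists were chosen with earlier results of these data known. Alternatives changed the pseudocount, filter, scaling and moderation, added the number as a term or left out a library. Plots used matplotlib 3.10.9 in Python 3.11.15.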

Additional observations from a re-analysis of the deposited data

How the results depend on the processing

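Limma on age alone called 0 loci with all 4 libraries under every other pseudocount, filter, scaling, moderation and threshold tried. In the main fit on age alone, over 12753 loci, 25 were higher and 53 lower at unadjusted p under 0.05. With the replicate block, the library number as a term, it called 3 loci (1 higher, 2 lower), none of them among the collagens, and 0 once structural RNA and mitochondrial loci were also removed. Leaving out 1 library gave 0 to 38 calls, with 31 without young 1, 2 without young 2, 38 without old 1 and 0 without old 2; no collagen of the set was among them. Same-numbered libraries deviated together from their age means (r = 0.823 across loci, a value that 2 pairs share by construction), and the labels do not say what a number marks. No other call changed under the block. Of 115 values of the 9 collagens under other settings, 106 kept their sign. Without 1 library the log2 difference ran from -2.18 to -1.26 for COL6A1, -2.10 to -0.49 for COL6A2, -2.74 to -0.70 for COL6A3 and -2.35 to -0.71 for COL16A1. It changed sign for COL8A1 (-0.39 to 0.37, and 0.036 after removal of structural RNA and mitochondrial loci with or without the block), COL12A1 (-0.49 to 1.80), COL14A1 (-0.51 to 8.2e-04), COL18A1 (-0.39 to 0.57) and COL21A1 (-1.03 to 0.14). The count of 6 genes lower in both numbers was 6 under both scalings, added after seeing the data, and 5 of 8 without COL16A1. The cause of these shifts was not tested.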

Other observations

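The pathway labels in the deposited tables separated collagen VI from the rest of the set. COL6A1, COL6A2 and COL6A3 carried the KEGG labels for ECM-receptor interaction, focal adhesion and PI3K-Akt signaling, which 72, 174 and 297 loci carry. COL12A1, COL14A1, COL16A1, COL18A1 and COL21A1 shared with them the label for protein digestion and absorption, which 81 loci carry, and the locus named COL8A1 had none of these labels. The locus named CMSS1 carried the protein digestion label. It measured 2.32, 2.50, 1.89 and 1.76 FPKM in young 1, young 2, old 1 and old 2.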
